A study of Homo sapiens with 24 samples.

Results

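The 48 genes described here encode subunits of respiratory complexes I, II and III and are carried by nuclear chromosomes. They were taken by gene symbol from a list that was drawn up with earlier results of these data known, and all 48 were found among the 60675 genes of the count files. Complex I contributed 35 genes (the NDUF genes), complex II 4 genes (SDHA, SDHB, SDHC and SDHD) and complex III 9 genes (CYC1 and the UQCR genes). The list is not a complete roster of these complexes. It holds 5 of the core subunits of complex I and 30 accessory ones.

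Complexes I, II and III feed electrons into the mitochondrial respiratory chain and pass them on to cytochrome c. Complex I oxidises NADH through a flavin and a row of iron-sulfur clusters in an arm that reaches into the matrix, while its membrane arm pumps protons. Complex II is succinate dehydrogenase, the only one of them that also works in the citric acid cycle, and it pumps no protons. Complex III takes electrons from ubiquinol by way of cytochrome b, the Rieske iron-sulfur protein and cytochrome c1. Subunits come from both nuclear and mitochondrial genomes, except in complex II, and the proximal tubule cells of the kidney are known for a high demand on oxidative phosphorylation.

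RNA-seq was done on ACHN, a renal carcinoma line labelled ccRCC, and on HK2, a human kidney proximal tubule line. Each line carried a control hairpin (shNC), a hairpin against the histone demethylase KDM5C (shKDM5C), a hairpin against the zinc-finger transcription factor YY1 (shYY1), or both (Dsh), with 3 libraries in each of the 8 groups and 24 in all. The hairpins were delivered by lentivirus and the infected cells were selected with puromycin as pools, and Dsh cells were made by giving a KDM5C hairpin marked with GFP to cells already depleted of YY1. The comparisons ask how transcript levels differ after knockdown of either factor or of both. Which hairpin sequence was used for sequencing, and whether the 3 libraries of a group came from separate cultures, were not given in the sources used here, so the p-values measure the spread between libraries, which may be technical. Dsh cells also differ from the single knockdowns in having been infected more than once, and this cannot be told apart from the knockdown of both factors.

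Library totals lay between 15926561 and 24272298 counted read pairs. The targets followed the labels in every library. KDM5C stood at 69.6 ± 0.538 CPM (counts scaled to library size by TMM within a line; SD, n = 3) in ACHN shNC, 42.1 ± 1.22 in shKDM5C and 40.2 ± 0.516 in Dsh, and at 194 ± 2.89 in HK2 shNC, 57.8 ± 17.7 in shKDM5C and 68.9 ± 3.24 in Dsh. YY1 stood at 137 ± 3.92 CPM in ACHN shNC, 75.5 ± 3.32 in shYY1 and 96 ± 6.7 in Dsh, and at 211 ± 6.89, 64.8 ± 3.52 and 75 ± 1.55 CPM in the same groups of HK2. KDM5C was also higher in shYY1 cells than in shNC cells of both lines, at 89.1 ± 2.52 CPM in ACHN and 247 ± 13.7 CPM in HK2. The kidney epithelial markers PAX8, PAX2, KRT8, KRT18, CDH2 and LHX1 were above 1 CPM in every library of both lines, whereas 6 markers of leukocytes, T cells, endothelium, hepatocytes and muscle summed to 0 to 0.927 CPM in an ACHN library and 0.181 to 2.01 CPM in an HK2 library. The endothelial marker PECAM1 was the one above 1 CPM in any library, with up to 1.71 CPM in HK2 Dsh and 1.26 CPM in HK2 shKDM5C. One library stood apart. HK2 shKDM5C replicate 1 differed from its partners with an SD of 0.787 to 0.797 over log2 values, against 0.187 to 0.279 in all other pairs of replicates, and the 48 genes took 0.192% of its counts against 0.253% and 0.264% in its partners. Results on the 48 genes that rest on it are given with and without it.

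Because one of the factors knocked down is a DNA-binding protein, the starts of the subunit genes were searched for its letters. RefSeq promoter windows of GRCh38.p14, 250 bases before to 50 after each start, were matched for 41 of the 48 genes. These 41 genes had 48 windows, and a gene was counted if any of its windows matched. The shares of all promoters and of those of tested genes count single windows, so the units differ. The YY1 letters AAGATGGC, read on both strands, were present in 9 of the 41 genes (22%), against 2.89% of 35116 promoters and 4.46% of 16669 promoters of genes tested in the ACHN double knockdown. In all 9 genes the letters lay on the gene's own strand, began 11 to 26 bases after the start, and had the annotated ATG start codon within them. The 30-base stretches around them are shown 5′ to 3′ on the strand of the gene with the YY1 letters in capitals, since these 9 genes are followed through the comparisons.
NDUFA3: ccgcggagacaAAGATGGCtgcgagtaagt
NDUFA6: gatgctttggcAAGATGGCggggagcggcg
NDUFA7: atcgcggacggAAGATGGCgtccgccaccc
NDUFA9: gattgtgggaaAAGATGGCggctgccgcac
NDUFB8: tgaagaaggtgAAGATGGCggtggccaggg
NDUFS4: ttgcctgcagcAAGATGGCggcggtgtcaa
NDUFS7: aggccgaggccAAGATGGCggtgctgtcag
SDHB: cgtcaggagccAAGATGGCggcggtggtcg
UQCRC1: actgcagctggAAGATGGCggcgtccgtgg

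On the plus strand, NDUFA3 is at chr19:54102865-54102894, NDUFA9 at chr12:4649113-4649142, NDUFS4 at chr5:53560649-53560678 and NDUFS7 at chr19:1383913-1383942. On the minus strand, NDUFA6 is at chr22:42090729-42090758, NDUFA7 at chr19:8321343-8321372, NDUFB8 at chr10:100529836-100529865, SDHB at chr1:17054004-17054033 and UQCRC1 at chr3:48609605-48609634. Letters of 2 other factors known to act on respiratory genes were searched in the same way. The NRF1 letters GCGCATGCG were present in 6 of the 41 genes (14.6%, against 1.92% of all promoters and 2.95% of those of tested genes), namely NDUFA5, NDUFA8, NDUFB4, NDUFS6, NDUFS7 and SDHD. The ETS letters CCGGAAGT were present in 6 genes (14.6%, against 4.14% and 6.91%), namely NDUFA13, NDUFS1, SDHD, UQCR11, UQCRH and UQCRQ. A match is a description of the sequence, and binding was not examined here.

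Nearly all of the genes were well expressed. In shNC cells the median level per kilobase of canonical transcript was 35.4 CPM per kb in ACHN and 39.7 CPM per kb in HK2, with NDUFS5, a small subunit of the membrane arm, the highest in both (177 and 229 CPM per kb). NDUFA7 was the lowest in every group, with 0 to 17 read pairs in a library, and was too low to be tested in HK2. Across the 8 groups, 40 to 45 of the 48 genes had a mean of at least 10 CPM. The summed share of all counts was 0.249% to 0.257% in ACHN shNC, 0.256% to 0.274% in shKDM5C, 0.25% to 0.257% in shYY1 and 0.203% to 0.225% in Dsh, so the ACHN Dsh libraries did not overlap with the rest of that line. In HK2 it was 0.261% to 0.272% in shNC, 0.287% to 0.32% in shYY1 and 0.241% to 0.257% in Dsh, and here the shYY1 libraries lay above all others.

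**Figure D1:**
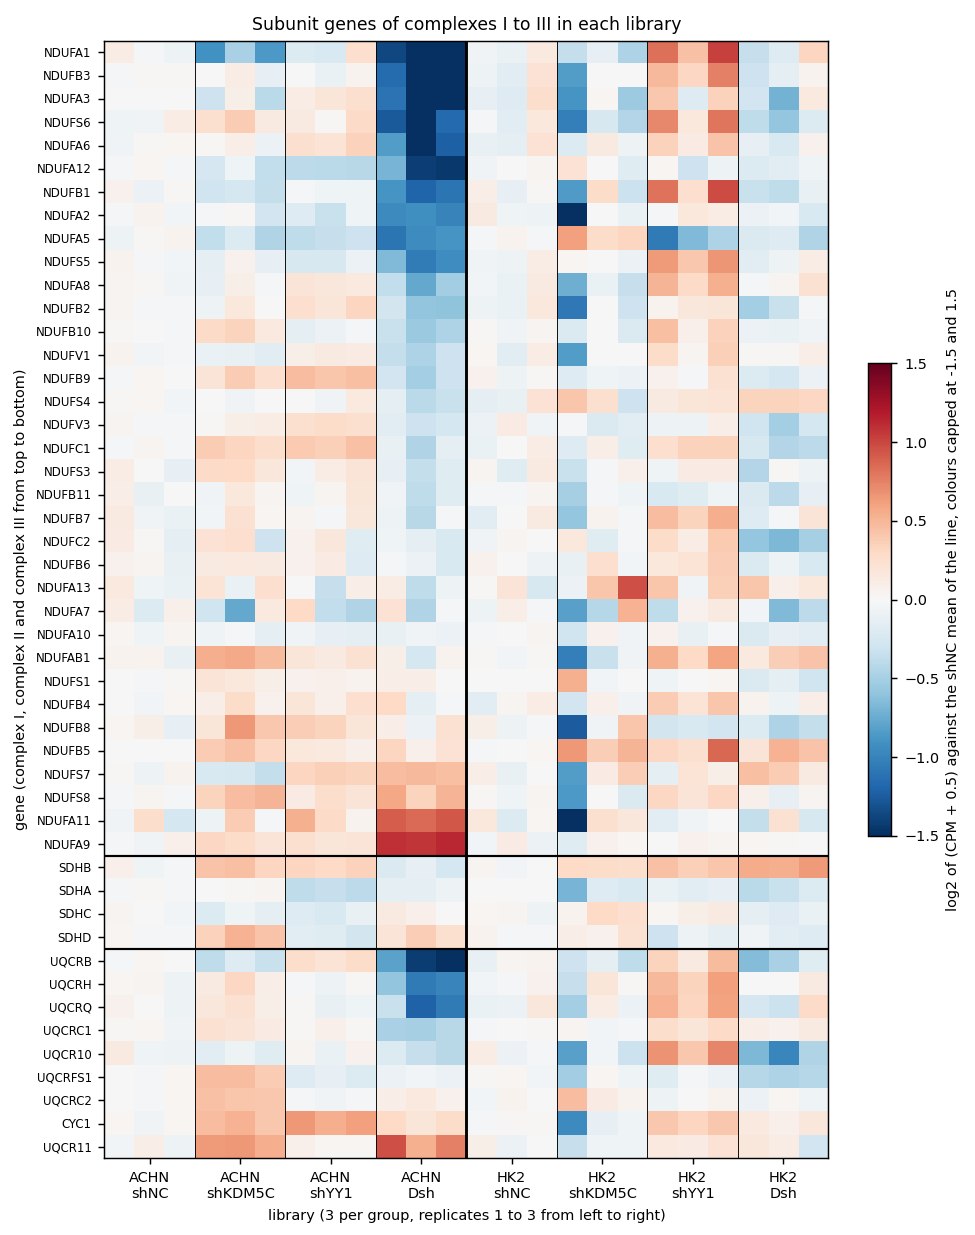
Heat map of the 48 genes (rows, complexes I, II and III separated by lines) in the 24 libraries (columns, 3 per group), coloured by the log2 of CPM plus 0.5 against the shNC mean of the same line, with colours capped at -1.5 and 1.5. The blue block in ACHN Dsh, the red columns in HK2 shYY1 and the odd first library of HK2 shKDM5C stand out from the rest.

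In ACHN cells with both hairpins, most of the subunit genes were lower than in control cells. Of the 48 genes, 27 fell and 8 rose in Dsh against shNC, where 32% of all 16454 genes tested fell and 30.7% rose (edgeR quasi-likelihood test, Benjamini-Hochberg adjusted p under 0.05 over all genes, any fold). Complex I had 20 genes that fell and 5 that rose of 35, complex II 2 and 1 of 4, and complex III 5 and 2 of 9. The median log2 change over the list was -0.22, against -0.01 over all genes tested, and 35 of the 48 values were below 0. Between Dsh libraries the median difference over the list was 0.24 (replicate 1 minus 2), 0.115 (1 minus 3) and -0.09 (2 minus 3). The first of these was as large as the median change itself. The SD between replicates of the median log2 CPM of the list was 0.0944, one value for the groups of both lines. The largest median differences between replicates, -0.37 and -0.33, were those of HK2 shKDM5C replicate 1 against its partners. In such bulk samples, fewer cells with a transcript and less of it per cell cannot be told apart.

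Of the 30 accessory genes of complex I, 18 fell and 3 rose with a median log2 change of -0.28, while of the 5 core genes 2 fell and 2 rose. By position, 9 of 14 genes of the peripheral arm and 11 of 20 of the membrane arm fell. The carrier protein NDUFAB1, which sits in both arms, was at 33.5, 33.3 and 29.7 CPM in shNC and 34.3, 26.7 and 33.4 CPM in Dsh and was not called.

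The changes of the 3 most reduced genes exceeded 1.5 on the log2 scale. NDUFA1, an accessory subunit of the membrane arm encoded on the X chromosome, stood at 31.9, 28.9 and 28 CPM in the shNC libraries and at 11.2, 5.79 and 5.53 CPM in Dsh (log2 change -2.0, SE 0.167, adjusted p = 5.56e-09). NDUFB3, another small membrane-arm subunit, went from 39.8, 41.3 and 41.1 CPM to 18.1, 9.88 and 10.9 CPM (log2 change -1.66, SE 0.139, adjusted p = 5.5e-09). NDUFA3, whose start carries the YY1 letters, was at 15.9, 15.9 and 16.1 CPM in shNC and at 7.15, 3.93 and 4.24 CPM in Dsh (log2 change -1.65, SE 0.158, adjusted p = 3.53e-08). No Dsh library reached any shNC library in these genes, and Dsh replicate 1 was the highest of its group in each of them. Of the exonic length of NDUFA1, 44.5% is shared with RNF113A, so some of its reads may have gone uncounted.

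NDUFS6, an accessory subunit of the peripheral arm that binds zinc, had 36.6, 37.1 and 41.6 CPM in shNC and 15.8, 12 and 16.9 CPM in Dsh (log2 change -1.36, SE 0.1, adjusted p = 9.77e-10). Its groups were well apart. NDUFA6, another gene with the YY1 letters, fell from 32.9, 34.7 and 34.8 CPM to 18.9, 11.1 and 14.3 CPM (log2 change -1.21, SE 0.121, adjusted p = 6.53e-08). The remaining complex I genes with a log2 change of about -1 were NDUFA12 (-1.16), NDUFB1 (-1.11), NDUFA2 (-1.0) and NDUFA5 (-0.98), followed by NDUFS5 (-0.88).

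In complex III, UQCRB, UQCRH, UQCRQ, UQCR10 and UQCRC1 fell and UQCR11 and CYC1 rose. UQCRB, a ubiquinone-binding accessory subunit, had 112, 116 and 113 CPM in shNC and 65, 42.1 and 39.9 CPM in Dsh (log2 change -1.22, SE 0.114, adjusted p = 2.52e-08). UQCRH, the hinge protein next to cytochrome c1, fell by 0.88 on the log2 scale, and UQCRQ, a small subunit that spans the membrane, fell by 0.83. UQCRC1, a core protein that faces the matrix and one of the genes with the YY1 letters, stood at 147, 148 and 139 CPM in shNC and 103, 102 and 108 CPM in Dsh (log2 change -0.48, SE 0.0473, adjusted p = 6.07e-08). Its partner UQCRC2 (log2 change 0.10, adjusted p = 0.0578) and the Rieske protein UQCRFS1 (-0.08, adjusted p = 0.175) were not called, and CYC1, the cytochrome c1 of the complex, rose by 0.25 (SE 0.0499, adjusted p = 0.000235).

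A smaller set rose in the same cells. NDUFA9, an accessory subunit near the ubiquinone site and again a gene with the YY1 letters, went from 10.7, 10.5 and 11.6 CPM in shNC to 24, 23.6 and 24.6 CPM in Dsh (log2 change 1.14, SE 0.0875, adjusted p = 1.72e-09). NDUFA11, an accessory subunit of the membrane arm, went from 5.82, 7.38 and 4.95 CPM to 11.8, 11.3 and 12 CPM (log2 change 0.95, SE 0.134, adjusted p = 5.42e-06). UQCR11, a small complex III subunit, went from 12.9, 14.3 and 12.6 CPM to 26.4, 19.5 and 22.7 CPM (log2 change 0.78, SE 0.106, adjusted p = 3.33e-06). All Dsh libraries exceeded all shNC libraries in these 3 genes.

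Of the core subunits that carry iron-sulfur clusters to the ubiquinone site, NDUFS8 rose from 56.3, 58.7 and 55.9 CPM to 85.1, 71.8 and 81.2 CPM (log2 change 0.48, SE 0.0611, adjusted p = 1.67e-06) and NDUFS7 from 16.8, 15.7 and 17.1 CPM to 22.9, 23.3 and 22.8 CPM (0.47, SE 0.0809, adjusted p = 4.77e-05). NDUFV1, which binds NADH and the flavin, fell from 93.6, 87.1 and 89 CPM to 70.2, 65 and 72.1 CPM (-0.38, SE 0.0535, adjusted p = 5.25e-06). NDUFS1, the largest core subunit, was at 138, 137 and 140 CPM in shNC and 148, 148 and 138 CPM in Dsh and was not called (0.06, adjusted p = 0.291). NDUFS3, a core subunit at the base of the matrix arm, fell by 0.22 (SE 0.0809, adjusted p = 0.0215), a call that was lost without shNC replicate 1 (adjusted p = 0.116), shNC replicate 2 (0.0575) or Dsh replicate 2 (0.095), by DESeq2 (0.0665), and with the trend over GC content and canonical transcript length removed (-0.06, adjusted p = 0.48). NDUFS7 shares 49.1% of its exonic length with other annotated genes.

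Complex II went in both directions. SDHA, UQCRFS1 and UQCRH have near-identical pseudogene copies, so their counts are uncertain. The iron-sulfur subunit SDHB, with the YY1 letters at its start, was at 60.9, 55 and 57 CPM in shNC and 49.4, 52.8 and 48.1 CPM in Dsh (log2 change -0.21, SE 0.0607, adjusted p = 0.00621), and with the trend over GC content and gene length removed the value was -0.11 and not called (adjusted p = 0.0985), as with canonical transcript length in its place (-0.04, adjusted p = 0.499). The membrane anchor SDHD rose from 36.2, 35.1 and 34.9 CPM to 40.6, 45.9 and 41.9 CPM (0.27, SE 0.0663, adjusted p = 0.00159). SDHC, the other anchor, was not called (0.07, adjusted p = 0.19). The flavoprotein SDHA fell by 0.11 (SE 0.0457, adjusted p = 0.0434), a call lost in 10 of 16 alternatives tried, among them without any one of the shNC libraries (adjusted p = 0.0711, 0.139 and 0.0726) or without Dsh replicate 1 (0.118) or 2 (0.0811).

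The list was also counted by transcript length. Of the 27 genes of the list with a canonical transcript under 1000 bases, 18 fell and 3 rose with a median log2 change of -0.33, while 31.4% of all tested genes of that length fell and 21.4% rose (median -0.12). Of the 21 longer ones, 9 fell and 5 rose (median -0.11), against 32.3% and 32% of all longer genes. With the trend over GC content and canonical transcript length removed, 22 genes of the list fell and 11 rose and the median was -0.09. The shares of all genes called in that fit were not computed. The part of transcript length in the result was not tested. Against the 32% of all genes tested that fell and the 30.7% that rose, 5 of the 9 genes with the YY1 letters fell and 2 rose, 3 of the 6 with the NRF1 letters fell and 2 rose, and 2 of the 6 with the ETS letters fell and 2 rose.

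**Figure D2:**
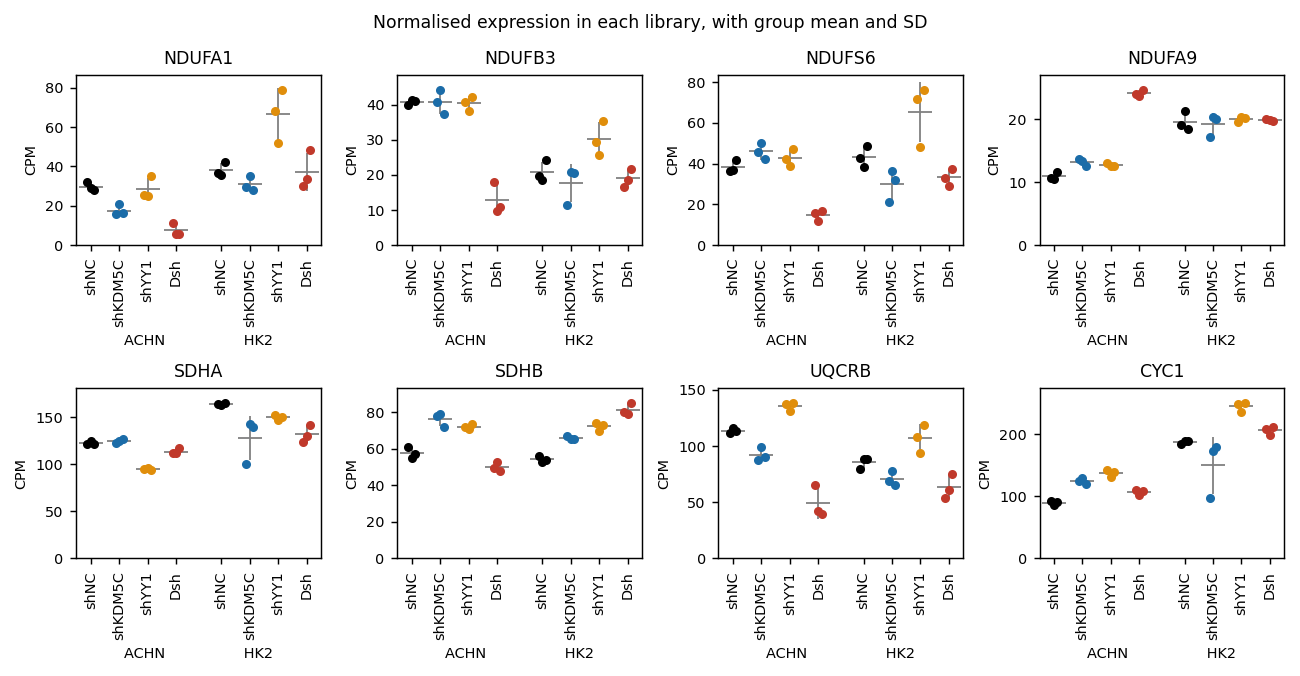
CPM in each library (points), with the group mean (horizontal bar) and SD (vertical bar), for 8 genes in the 4 groups of ACHN and of HK2, each on an axis that starts at 0. NDUFA1, NDUFB3, NDUFS6 and UQCRB were lowest in ACHN Dsh, NDUFA9 was highest of the ACHN groups there, and SDHB was lowest in Dsh among the ACHN groups and highest in Dsh among the HK2 groups.

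In the single knockdowns of ACHN, more genes of the list rose than fell. In shKDM5C, 9 of the 48 genes fell and 21 rose, where 27.7% of 16184 genes tested fell and 28.9% rose, and the median log2 change was 0.09, or 0.04 with total-count scaling or without shKDM5C replicate 2 and 0.05 without shNC replicate 3. In complex III 7 of 9 genes rose and 2 fell, in complex I 12 of 35 rose and 6 fell, and in complex II 2 of 4 rose and 1 fell. UQCR11 rose from 12.9, 14.3 and 12.6 CPM in shNC to 21, 21.1 and 19.6 CPM (log2 change 0.62, SE 0.0823, adjusted p = 4.56e-07), and the acyl carrier protein NDUFAB1 from 33.5, 33.3 and 29.7 CPM to 47.2, 48.1 and 44.9 CPM (0.53, SE 0.0593, adjusted p = 2.78e-08). CYC1 rose by 0.46, UQCRFS1 by 0.43, UQCRC2 by 0.42 and UQCRC1 by 0.17, so that each catalytic or core complex III subunit on the list was higher. No change of a listed gene passed 1.5 on the log2 scale in either single knockdown of either line.

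NDUFA1 was again the most reduced gene in ACHN shKDM5C, at 15.6, 21 and 16.1 CPM against 31.9, 28.9 and 28 CPM in shNC (log2 change -0.76, SE 0.088, adjusted p = 4.99e-08). NDUFA5, an accessory subunit of the peripheral arm, fell by 0.35, NDUFB1 by 0.33 and UQCRB by 0.30. In complex II, SDHB rose by 0.40 (SE 0.0492, adjusted p = 1.47e-07) and SDHD by 0.43 (SE 0.0566, adjusted p = 4.35e-07), SDHC fell by 0.14 (SE 0.0381, adjusted p = 0.00218) and SDHA was not called (0.02, adjusted p = 0.704). Among the core subunits of complex I, NDUFS8 rose by 0.43, NDUFS3 by 0.25 and NDUFS1 by 0.14, while NDUFS7 fell by 0.29 and NDUFV1 by 0.13. The call of NDUFV1 was lost without shNC replicate 1 (adjusted p = 0.0777) and by DESeq2 (0.0696), and with the trend over GC content and gene length removed SDHC (-0.04, adjusted p = 0.379) and NDUFS7 (-0.15, adjusted p = 0.124) were not called. NDUFB8, which also rose (0.46, SE 0.163, adjusted p = 0.0185), was at only 3.46 to 6.3 CPM and lost its call by DESeq2 (adjusted p = 0.0821) and without shNC replicate 3 (0.40, adjusted p = 0.0798) or shKDM5C replicate 2 (0.32, adjusted p = 0.136).

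In ACHN shYY1, 9 genes fell and 14 rose, where 24.5% of 16370 genes fell and 24.2% rose, with a median log2 change of 0.03. The medians of both single knockdowns of ACHN were below the SD of 0.0944 between replicates, which is not specific to these groups. Median differences over the list between libraries (1 minus 2, 1 minus 3 and 2 minus 3) were 0.03, 0.05 and 0.03 in ACHN shNC. They were -0.06, 0.06 and 0.12 in ACHN shKDM5C and 0.04, -0.02 and -0.04 in ACHN shYY1. CYC1 rose the most, from 92.2, 86.7 and 91.7 CPM in shNC to 142, 132 and 139 CPM (log2 change 0.59, SE 0.0379, adjusted p = 4.54e-15). NDUFB9, a membrane-arm subunit of the LYR protein family, rose from 47, 48.8 and 47.9 CPM to 66.1, 64.3 and 65.6 CPM (0.43, SE 0.0468, adjusted p = 1.96e-09), NDUFC1 by 0.39 and NDUFS7 by 0.33. The groups were apart in each of CYC1 and NDUFB9. NDUFA12, an accessory subunit of the peripheral arm, fell from 60.2, 62.4 and 60.2 CPM to 46.2, 45.9 and 45.6 CPM (-0.43, SE 0.0479, adjusted p = 3.02e-09), and NDUFA5 fell by 0.37.

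In complex II, 3 genes fell and 1 rose in ACHN shYY1. SDHA fell from 122, 125 and 122 CPM to 94.7, 96.5 and 93.7 CPM (log2 change -0.39, SE 0.0358, adjusted p = 3.24e-11), SDHD by 0.23 (SE 0.0574, adjusted p = 0.00109) and SDHC by 0.20 (SE 0.0352, adjusted p = 1.33e-05). SDHB, in contrast, rose from 60.9, 55 and 57 CPM to 71.9, 70.8 and 73.6 CPM (0.30, SE 0.0462, adjusted p = 1.29e-06). No library of one group reached into the other for these 4 genes. In complex III, UQCRFS1 fell by 0.20 (SE 0.0426, adjusted p = 0.000216), and UQCRC1 (0.01, adjusted p = 0.77) and UQCRC2 (-0.05, adjusted p = 0.264) were not called. Among the complex I core, NDUFS8 rose by 0.17 (SE 0.0476, adjusted p = 0.00262), NDUFS1 (0.04, adjusted p = 0.309) and NDUFS3 (0.07, adjusted p = 0.373) were not called, and NDUFV1 rose by 0.10 (SE 0.0387, adjusted p = 0.0362), which was lost without shNC replicate 2 (adjusted p = 0.171) or 3 (0.104) or without shYY1 replicate 2 (0.1) or 3 (0.0825), and by DESeq2 (0.0903), total-count scaling (0.0811) or with the trend over GC content and gene length removed (0.0676). With that trend removed SDHC stood at -0.10, SDHD at -0.15 and UQCRFS1 at -0.12, all still called.

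All ACHN comparisons share the same shNC libraries, so their calls are set side by side here and not tested against each other. The shares of all genes with the same joint calls were not computed. Of the 27 genes that fell in Dsh, 17 were not lower in either single knockdown and 15 were higher in at least one of them. NDUFA5 and NDUFA12 were lower in all 3 knockdowns and NDUFS8 and CYC1 were higher in all 3. NDUFA7, NDUFA13, NDUFB6, NDUFB7 and NDUFC2 were called in none of them.

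Whether Dsh departed from the sum of the single effects was tested in one model over the 12 ACHN libraries. On the log2 scale, 33 of the 48 genes were lower in Dsh than that sum and 5 were higher, where 28.8% of 17228 genes tested were lower and 26.8% higher. The median departure was -0.45, against 0.01 over all genes. Of the 35 complex I genes 25 were lower and 3 higher (14 of 20 in the membrane arm, 10 of 14 in the peripheral arm), and of the 9 complex III genes 7 were lower and none higher. In complex II SDHB was lower, SDHA and SDHC were higher, and SDHD was not called. The targets were not equally reduced in the groups compared. YY1 was at 75.5 CPM in ACHN shYY1 and 96 CPM in Dsh, and KDM5C at 42.1 CPM in shKDM5C, 89.1 CPM in shYY1 and 40.2 CPM in Dsh. The part of these levels in the departures was not tested.

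The largest departures downward were those of NDUFS6 (-1.77, SE 0.131, adjusted p = 1.99e-11), NDUFB3 (-1.65, SE 0.165, adjusted p = 4.27e-09) and NDUFA3 (-1.63, SE 0.203, adjusted p = 1.88e-07), the 3 of them past 1.5. NDUFS6 had been at 45.6, 50.3 and 42.2 CPM in shKDM5C and at 42.4, 38.8 and 47 CPM in shYY1, so each single knockdown was well above the 12 to 16.9 CPM of Dsh. NDUFB3 was at 37.5 to 44.2 CPM in both single knockdowns and NDUFA3 at 11.9 to 18.9 CPM. SDHB (-0.935, SE 0.0745, adjusted p = 7.34e-11) and CYC1 (-0.83, SE 0.0639, adjusted p = 4.3e-11) were also below the sum, and each had risen in both single knockdowns. In all, 25 genes were lower both by this test and in Dsh against shNC, and 8 (NDUFAB1, NDUFB5, NDUFB7, NDUFB8, NDUFS1, UQCRC2, UQCRFS1 and CYC1) were lower by this test alone. The Dsh and shNC libraries enter both tests, so some overlap is built in, and its share over all genes was not computed.

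Upward departures were found for NDUFA9 (0.65, SE 0.117, adjusted p = 3.72e-05), NDUFS7 (0.41, SE 0.106, adjusted p = 0.00185), SDHC (0.39, SE 0.0634, adjusted p = 9.57e-06), SDHA (0.24, SE 0.0554, adjusted p = 0.000675) and NDUFA11 (0.51, SE 0.213, adjusted p = 0.0434). The call of NDUFA11, a gene with 4.95 to 12 CPM in this line, was lost by DESeq2 (adjusted p = 0.0991) and in 8 of the fits that left out a library, with adjusted p up to 0.195 (without shNC replicate 2). Of the core and catalytic genes, UQCRC1 (-0.69), NDUFS3 (-0.57), NDUFV1 (-0.37), UQCRFS1 (-0.34), UQCRC2 (-0.29) and NDUFS1 (-0.15) were lower than the sum, and NDUFS8 (-0.15, adjusted p = 0.119) and SDHD (0.05, adjusted p = 0.682) were not called. SDHA was not called with the trend over GC content and gene length removed (0.10, adjusted p = 0.0856), and SDHC was then at 0.17 (adjusted p = 0.0306). NDUFS1 was at -0.36 with that trend removed (adjusted p = 2.95e-06) and at -0.40 with canonical transcript length in its place (4.33e-07), where NDUFV1 was at -0.19 and NDUFS7 at 0.66. NDUFS1 lost its call under total-count scaling (-0.05, adjusted p = 0.439) and without shNC replicate 2 (0.0579), shKDM5C replicate 1 (0.14) or 2 (0.0564), shYY1 replicate 2 (0.0554) or Dsh replicate 3 (0.0769). The departures were 30 lower and 6 higher with the trend over GC content and canonical transcript length removed, a fit for which the shares of all genes were not computed.

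**Figure D3:**
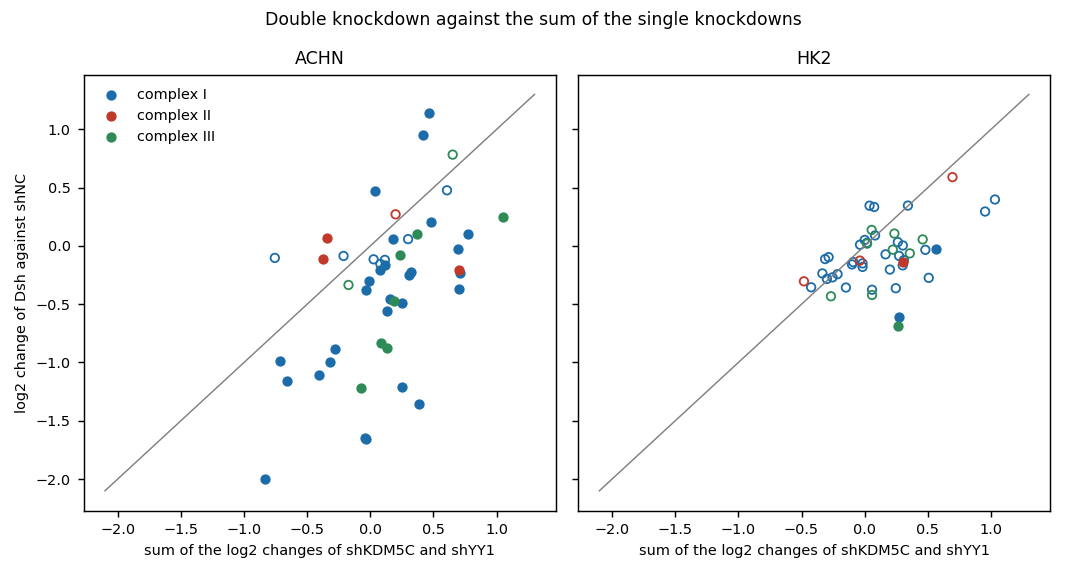
Log2 change in Dsh against shNC (vertical axis) plotted against the sum of the log2 changes of shKDM5C and shYY1 (horizontal axis) for each gene in ACHN and HK2, with the line on which both would be equal. Filled points were called in the test of the departure from the sum, open points were not, and in ACHN 33 genes were called below the line.

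In HK2 shYY1, 23 of the 47 genes tested rose and 1 fell, where 14.3% of 16071 genes rose and 14.7% fell, with a median log2 change of 0.24 against 0.01 over all genes. Complex I had 16 genes that rose of 34 (11 of 20 in the membrane arm and 4 of 13 in the peripheral arm), complex III 6 of 9 and complex II 1 of 4. NDUFA1, the gene most reduced in ACHN Dsh and ACHN shKDM5C but not in ACHN shYY1, rose the most. It went from 36.9, 35.8 and 42.5 CPM in shNC to 68.3, 52.1 and 78.8 CPM (log2 change 0.79, SE 0.105, adjusted p = 4.81e-06). NDUFB1, a single-pass membrane-arm subunit, rose from 15.6, 13.3 and 14.7 CPM to 25.9, 17.4 and 29.1 CPM (0.73, SE 0.14, adjusted p = 0.000342). UQCR10, a small complex III subunit next to cytochrome c1, rose from 41.7, 36.4 and 37.8 CPM to 61.9, 51.5 and 64.5 CPM (0.62, SE 0.0824, adjusted p = 4.92e-06), and NDUFS6 from 42.9, 38.5 and 48.5 CPM to 71.5, 48.4 and 76.1 CPM (0.59, SE 0.114, adjusted p = 0.000376). The shYY1 libraries lay above the shNC libraries in NDUFA1, NDUFB1 and UQCR10, and for NDUFS6 replicate 2 fell just short of the highest shNC library.

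NDUFA5 was the only gene that fell in HK2 shYY1, from 24.2, 25.5 and 24 CPM to 11.5, 15.4 and 17.7 CPM (log2 change -0.72, SE 0.123, adjusted p = 9.42e-05). SDHB rose from 56.2, 52.8 and 54.2 CPM to 74.2, 69.9 and 73 CPM (0.41, SE 0.0622, adjusted p = 2.45e-05), and SDHA (-0.13, adjusted p = 0.056), SDHC (0.09, adjusted p = 0.274) and SDHD (-0.17, adjusted p = 0.0759) were not called. CYC1 rose from 185, 190 and 190 CPM to 249, 236 and 250 CPM (0.38, SE 0.0483, adjusted p = 2.67e-06) and UQCRC1 by 0.24 (SE 0.0484, adjusted p = 0.000505), while UQCRC2 (-0.01, adjusted p = 0.93) and UQCRFS1 (-0.10, adjusted p = 0.228) were not called. In the complex I core NDUFS8 rose by 0.28 (SE 0.0623, adjusted p = 0.00164) and NDUFV1 by 0.23 (SE 0.0746, adjusted p = 0.0237), and NDUFS1 (-0.01, adjusted p = 0.956), NDUFS3 (0.06, adjusted p = 0.645) and NDUFS7 (0.06, adjusted p = 0.74) were not called. The call of NDUFV1 was lost without shNC replicate 1 (adjusted p = 0.051) or 2 (0.15, adjusted p = 0.178) and without shYY1 replicate 1 (adjusted p = 0.0809) or 3 (0.15, adjusted p = 0.182).

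Counted by length in the same comparison, of the 26 tested genes of the list under 1000 bases, 14 rose and none fell (median 0.32), while 20.1% of all tested genes of that length rose and 3.6% fell (median 0.14). Of the 21 longer ones, 9 rose and 1 fell (median 0.17), against 13.7% and 16.4% of all longer genes (median -0.01). With the trend over GC content and canonical transcript length removed, 19 genes of the list rose and 6 fell and the median was 0.14. The shares of all genes called in that fit were not computed, and the part of length in the result was not tested. A fit over all 12 HK2 libraries, which lets HK2 shKDM5C replicate 1 into the estimate of the spread, called 4 genes higher, and the same fit without that library called 22. In the former NDUFB1 (adjusted p = 0.127), UQCR10 (0.0755), NDUFS6 (0.134), CYC1 (0.268), UQCRC1 (0.0816), NDUFS8 (0.427) and NDUFV1 (0.586) were not called. The shares of all genes called in either of these fits were not computed. Of the genes with the YY1 letters, all but NDUFA7 were tested in HK2, and 3 rose and none fell, beside the 14.3% and 14.7% of all genes.

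In HK2 Dsh, 16 of 47 genes fell and 7 rose, where 24.3% of 16217 genes fell and 25.5% rose, with a median log2 change of -0.11. In complex I 11 of 34 genes fell and 4 rose, in complex II 2 fell and 1 rose, and in complex III 3 fell and 2 rose. UQCR10 fell the most, from 41.7, 36.4 and 37.8 CPM in shNC to 24, 19.3 and 28.1 CPM (log2 change -0.69, SE 0.0985, adjusted p = 6.44e-07). NDUFC2, a membrane-arm subunit, went from 11.3, 12.1 and 11.7 CPM to 7.63, 7.14 and 8.17 CPM (-0.61, SE 0.138, adjusted p = 0.00043), and UQCRFS1, the Rieske protein, from 76.4, 76.9 and 73.1 CPM to 56.2, 54.6 and 56.2 CPM (-0.43, SE 0.0595, adjusted p = 3.55e-07). UQCRB fell by 0.42 (SE 0.0781, adjusted p = 3.75e-05). The groups of all 4 genes were apart.

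SDHB rose the most in HK2 Dsh, from 56.2, 52.8 and 54.2 CPM in shNC to 80.3, 79.4 and 85 CPM (log2 change 0.59, SE 0.0596, adjusted p = 8.87e-10), whereas SDHA fell from 164, 163 and 165 CPM to 124, 130 and 142 CPM (-0.30, SE 0.0498, adjusted p = 6.31e-06). The 2 soluble subunits of complex II moved in opposite directions, each with no overlap between the groups. SDHC fell by 0.14 (SE 0.0578, adjusted p = 0.043), lost without shNC replicate 1 (adjusted p = 0.127) or 2 (0.133) or without Dsh replicate 1 (0.0959) or 2 (0.152), and SDHD was not called (-0.13, adjusted p = 0.129).

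NDUFB5, a membrane-arm subunit, rose by 0.40 (SE 0.0754, adjusted p = 4.97e-05), and NDUFS7 and NDUFS4, both in the peripheral arm, by 0.34 (SE 0.105, adjusted p = 0.00707) and 0.35 (SE 0.118, adjusted p = 0.0155). NDUFS7 lost its call without Dsh replicate 1 (adjusted p = 0.0567) and NDUFS4 without shNC replicate 1 (0.0868) or 2 (0.0711). NDUFS1 fell from 126, 127 and 125 CPM to 108, 115 and 102 CPM (-0.20, SE 0.0525, adjusted p = 0.0017), and NDUFS3 (-0.15, adjusted p = 0.224), NDUFS8 (0.01, adjusted p = 0.908) and NDUFV1 (0.05, adjusted p = 0.518) were not called. CYC1 rose by 0.14 (SE 0.0448, adjusted p = 0.0113), lost without shNC replicate 1 (adjusted p = 0.0593), and UQCRC1 by 0.11 (SE 0.0434, adjusted p = 0.0425), lost without any one shNC library (adjusted p = 0.146, 0.0581 and 0.0848) or without Dsh replicate 1 (0.075) or 3 (0.099). UQCRC2 was not called (-0.03, adjusted p = 0.664). Without Dsh replicate 2, 10 genes fell in place of 16, and without shNC replicate 1, 4 rose in place of 7. The fit over all 12 HK2 libraries called 4 genes lower and 1 higher, and the same fit without HK2 shKDM5C replicate 1 called 15 and 7. In the former NDUFB5 (adjusted p = 0.0949), NDUFS4 (0.191), NDUFS7 (0.354), NDUFS1 (0.295), SDHA (0.078), SDHC (0.287), CYC1 (0.65) and UQCRC1 (0.381) were not called. The shares of all genes called in either of these fits were not computed. With total-count scaling CYC1 (0.0576) and UQCRC1 (0.184) lost their calls, as did NDUFS4 (0.0534) and SDHC (0.101) by DESeq2. Of the genes with the YY1 letters tested in HK2, 1 fell and 4 rose, beside 24.3% and 25.5% of all genes.

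In HK2 shKDM5C none of the 47 genes was called, lower or higher, where 0.656% of 16161 genes tested fell and 0.668% rose by edgeR. At an unadjusted p under 0.05, 2 genes of the list were lower and 3 were higher, beside 1140 and 1338 of the 16161 genes tested. DESeq2 likewise called 0 genes of the list in each direction. HK2 shKDM5C replicate 1, the library that stood apart, differed from its partners in these genes too. CYC1 was at 96.7, 173 and 180 CPM in the 3 libraries of that group against 185 to 190 CPM in shNC, NDUFS1 at 183, 122 and 127 CPM against 125 to 127 CPM, and SDHA at 101, 143 and 140 CPM against 163 to 165 CPM. The first value of each is replicate 1, which lay outside the other 2 in all 3 genes.

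Without that library, 4 genes of the list were lower and 5 higher in HK2 shKDM5C, where 10.9% of 16642 genes tested were lower and 11.5% higher. The lower ones were NDUFS6 (log2 change -0.34, SE 0.0923, adjusted p = 0.00801), NDUFA1 (-0.29, SE 0.0979, adjusted p = 0.034), UQCRB (-0.25, SE 0.0704, adjusted p = 0.0108) and SDHA (-0.21, SE 0.0464, adjusted p = 0.00122). The higher ones were NDUFA13, a subunit also known as GRIM-19 (0.87, SE 0.315, adjusted p = 0.0498), NDUFB5 (0.44, SE 0.0724, adjusted p = 5.88e-05), NDUFA5 (0.30, SE 0.0914, adjusted p = 0.0174), SDHC (0.28, SE 0.0575, adjusted p = 0.000691) and SDHB (0.27, SE 0.0648, adjusted p = 0.00369). NDUFA13 rested on low values, 1.36 to 3.79 CPM in these libraries. These genes were named after their values were seen.

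The departure of HK2 Dsh from the sum of the single effects was called for 4 genes lower and none higher, where 4.4% of 17093 genes were lower and 5.21% higher. At an unadjusted p under 0.05, 10 genes of the list were lower and 0 higher, beside 2112 and 2116 of the 17093 genes tested. The 4 were UQCR10 (-0.96, SE 0.262, adjusted p = 0.0377), NDUFC2 (-0.88, SE 0.19, adjusted p = 0.0117), NDUFS5 (-0.59, SE 0.147, adjusted p = 0.0245) and SDHC (-0.45, SE 0.13, adjusted p = 0.0481). Without HK2 shKDM5C replicate 1, 18 genes were lower, where 13.7% of 17642 genes were, and UQCR10 (-1.13, SE 0.154, adjusted p = 1.57e-06), NDUFB1 (-1.01, SE 0.232, adjusted p = 0.00127) and NDUFC2 (-0.78, SE 0.186, adjusted p = 0.00182) had the largest departures. Leaving out any other of the 12 libraries gave 1 to 3 genes lower. UQCR10 was lost in each of those 11 fits but that without Dsh replicate 3 (adjusted p up to 0.107, without shYY1 replicate 3), SDHC in all 11 (up to 0.137, without shNC replicate 3), and NDUFS5 in 6 of them (up to 0.0776, without Dsh replicate 1). With total-count scaling UQCR10 (0.0857) and SDHC (0.184) were not called, and SDHC was not with the trend over GC content and gene length removed (0.239).

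Several genes moved the same way after knockdown of both factors in the lines, and others did not. In Dsh, 10 genes were lower in both lines (NDUFA5, NDUFB2, NDUFB9, NDUFB11, NDUFC1, NDUFS6, NDUFV3, SDHA, UQCRB and UQCR10) and 3 were higher in both (NDUFB5, NDUFS7 and CYC1). SDHB, NDUFS4 and UQCRC1, all with the YY1 letters at their start, were lower in ACHN and higher in HK2. Another 14 of the 27 genes that fell in ACHN Dsh were not called in HK2 Dsh, among them NDUFA1, NDUFA3 and NDUFB3. For these joint calls too, the shares of all genes were not computed. A call in one line alone does not show a difference, so the difference of the effects was tested over the 12 libraries of each pair of groups.

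**Figure D4:**
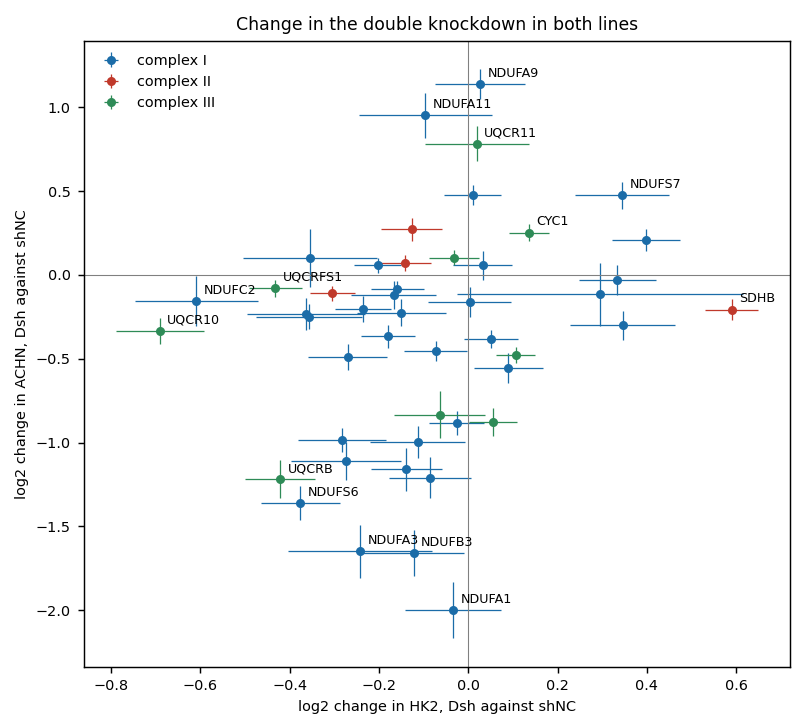
Log2 change of each tested gene in Dsh against shNC in HK2 (horizontal axis) and in ACHN (vertical axis), with bars of 1 SE and colours by complex. NDUFA1, NDUFB3 and NDUFA3 lay below -1.5 in ACHN and at -0.03, -0.12 and -0.24 in HK2, and SDHB lay at -0.21 in ACHN and 0.59 in HK2.

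For Dsh, 20 of the 48 genes had a lower effect in ACHN than in HK2 and 11 a higher one, where 22.7% of 18087 genes tested were lower and 23.3% higher. NDUFA1 (difference -1.94, SE 0.226, adjusted p = 3.12e-08), NDUFB3 (-1.52, SE 0.198, adjusted p = 2.45e-07) and NDUFA3 (-1.39, SE 0.261, adjusted p = 6.29e-05) differed the most downward, and NDUFA9 (1.13, SE 0.132, adjusted p = 3.55e-08), NDUFA11 (1.07, SE 0.219, adjusted p = 0.000185) and UQCR11 (0.78, SE 0.167, adjusted p = 0.000303) the most upward. The effect on SDHB was lower by 0.78 on the log2 scale in ACHN (SE 0.0842, adjusted p = 8.77e-09), with NDUFS4 at -0.63 (SE 0.145, adjusted p = 0.000719) and UQCRC1 at -0.56 (SE 0.0631, adjusted p = 1.7e-08). The other anchors and core genes with a higher effect in ACHN were SDHD (0.42), NDUFS8 (0.49), UQCRFS1 (0.37), NDUFS1 (0.28), SDHC (0.23) and SDHA (0.21). SDHA lost its call without ACHN shNC replicate 1 (adjusted p = 0.0776) or 3 (0.0711) or HK2 Dsh replicate 1 (0.0557), SDHC without ACHN shNC replicate 3 (0.0632), and without that same library 7 genes had a higher effect in ACHN in place of 11. Without the filter on low counts SDHA (0.113) and SDHC (0.0766) were not called. The fit over all libraries called 3 genes higher, and 11 when HK2 shKDM5C replicate 1 was left out of it. In the former NDUFA11 (adjusted p = 0.0867), SDHA (0.27), SDHC (0.117), UQCRFS1 (0.0509), NDUFS1 (0.132) and NDUFS8 (0.0653) were not called. The shares of all genes called in either of these fits were not computed.

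For shYY1, 17 genes had a lower effect in ACHN than in HK2 and 4 a higher one, where 16.5% of 18010 genes were lower and 16.6% higher. NDUFA1 (difference -0.85, SE 0.163, adjusted p = 0.000148), NDUFB1 (-0.80, SE 0.175, adjusted p = 0.000609) and NDUFS5 (-0.77, SE 0.0849, adjusted p = 2.52e-08) differed the most. The 4 with a higher effect were NDUFB8 (0.60, SE 0.2, adjusted p = 0.0197), NDUFA5 (0.37, SE 0.129, adjusted p = 0.0286), NDUFB9 (0.34, SE 0.0817, adjusted p = 0.00141) and CYC1 (0.22, SE 0.0591, adjusted p = 0.00401). In complex II the effect was lower in ACHN for SDHA (-0.25, adjusted p = 0.00064) and SDHC (-0.28, adjusted p = 0.00122), and SDHB (-0.10, adjusted p = 0.357) and SDHD (-0.04, adjusted p = 0.781) were not called. NDUFA5 lost its call without ACHN shNC replicate 1 (adjusted p = 0.0796), ACHN shYY1 replicate 3 (0.0591), HK2 shNC replicate 2 (0.0592) or HK2 shYY1 replicate 1 (0.21, adjusted p = 0.151), and NDUFB8 without ACHN shNC replicate 3 (0.0637) or ACHN shYY1 replicate 1 (0.0549). CYC1 was not called with the trend over GC content and gene length removed (0.06, adjusted p = 0.431) or with canonical transcript length in its place (0.10, adjusted p = 0.172), and in the latter SDHC was not (-0.07, adjusted p = 0.354) and NDUFB9 was at 0.59. The fit over all libraries called 3 genes lower and 1 higher, and 14 and 4 when HK2 shKDM5C replicate 1 was left out of it. In the former NDUFA1 (adjusted p = 0.0642), NDUFB1 (0.061), NDUFB8 (0.315), NDUFA5 (0.147), CYC1 (0.512), SDHA (0.252) and SDHC (0.0922) were not called. The shares of all genes called in either of these fits were not computed.

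For shKDM5C, 1 gene had a lower effect in ACHN and 4 a higher one, where 6.18% of 17948 genes were lower and 5.74% higher. NDUFA5 was the lower one (difference -0.76, SE 0.15, adjusted p = 0.00715), and UQCR11 (0.78, SE 0.163, adjusted p = 0.0095), NDUFAB1 (0.95, SE 0.262, adjusted p = 0.0356), UQCRFS1 (0.61, SE 0.17, adjusted p = 0.0391) and NDUFB9 (0.40, SE 0.117, adjusted p = 0.0471) were higher. Without HK2 shKDM5C replicate 1, 4 genes were lower and 14 higher, and without replicate 2 of that group 9 were higher. For this contrast, the shares of all genes called with a library left out were not computed. NDUFB9 was named after its value was seen. NDUFAB1 and UQCRFS1 lost their calls in each fit that left out an ACHN library or an HK2 shNC library, with adjusted p of 0.0685 to 0.0967 and of 0.0734 to 0.0974, and in those fits 1 gene was higher. UQCR11 lost its call with the trend over GC content and gene length removed (0.46, adjusted p = 0.0851), as did NDUFA5 (-0.35, adjusted p = 0.0962). With total-count scaling NDUFAB1 (0.064) and UQCRFS1 (0.0815) were not called.

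Between ACHN shNC and HK2 shNC, 17 of 47 genes were lower in ACHN and 17 higher, where 38% of 16988 genes were lower and 38.6% higher. NDUFB8 (log2 difference -1.23, SE 0.149), CYC1 (-1.02, SE 0.0402) and NDUFC2 (-1.01, SE 0.131) were the most reduced in ACHN, and NDUFA13 (1.2, SE 0.231), NDUFA5 (1.12, SE 0.0657) and NDUFB3 (1.01, SE 0.0813) the most raised. In complex II the anchor SDHC was higher in ACHN (1.00, SE 0.0435), SDHA (-0.38, SE 0.0379) and SDHD (-0.47, SE 0.0602) were lower, and SDHB was not called (0.12, adjusted p = 0.0515). UQCRC1 was lower (-0.52, SE 0.0374), UQCRC2 higher (0.51, SE 0.0427), and UQCRFS1 was not called (0.04, adjusted p = 0.399). NDUFS1 was higher (0.18, SE 0.0385), NDUFS3, NDUFS7 and NDUFS8 were not called, and NDUFV1 (0.13, adjusted p = 0.0346) lost its call without ACHN shNC replicate 1 (adjusted p = 0.131) or HK2 shNC replicate 2 (0.05, adjusted p = 0.332), by DESeq2 (0.0722), and with total-count scaling (0.07, adjusted p = 0.23). In the fit over all libraries NDUFS1 was not called (adjusted p = 0.116). NDUFB8 shares 48.5% of its exonic length with other annotated genes, HIF1AN among them.

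The later complexes of the chain were counted from lists of 11 complex IV and 15 ATP synthase genes. For these and the next lists, the shares of all genes that fell and rose were 32% and 30.7% in ACHN Dsh. They were 27.7% and 28.9% in ACHN shKDM5C and 24.5% and 24.2% in ACHN shYY1. In HK2 they were 14.7% and 14.3% for shYY1 and 24.3% and 25.5% for Dsh. Departures from the sum in ACHN were lower for 28.8% of all genes and higher for 26.8%. In ACHN Dsh, 8 of 11 complex IV genes fell and 1 rose (median log2 change -0.67), with COX6C (-1.44, SE 0.137) and COX7C (-1.27, SE 0.168), small subunits of cytochrome c oxidase, the most reduced and COX6A1 raised (0.64, SE 0.0677). In ATP synthase 10 of 15 genes fell and 4 rose (median -0.52), from ATP5F1E at -1.43 (SE 0.173) to ATP5F1D at 1.06 (SE 0.0577). In HK2 shYY1, 9 of the 11 complex IV genes rose and none fell, with COX6C at 0.55 (SE 0.0785), and 10 of 15 ATP synthase genes rose and 1 fell. In HK2 Dsh, 2 complex IV genes fell and none rose, and 7 ATP synthase genes fell and none rose, among them the catalytic-head subunit ATP5F1A (-0.64, SE 0.0417). In ACHN shKDM5C complex IV had 2 genes lower and 4 higher and complex V 1 and 10, and in ACHN shYY1 the counts were 2 and 4 and 5 and 3. By the departure from the sum in ACHN, 10 complex IV genes were lower and 1 higher, and 9 complex V genes were lower and 2 higher.

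Among 8 subunit genes of complexes I and III that lie on mitochondrial DNA, 4 fell and 2 rose in ACHN Dsh. MT-ND4L (log2 change -2.29, SE 0.174) and MT-ND3 (-1.93, SE 0.224) had the largest values, MT-CYB, the cytochrome b of complex III, was not called (0.03, adjusted p = 0.492), and MT-ND1 (0.15, SE 0.0392) and MT-ND2 (0.22, SE 0.0426) rose. In ACHN shKDM5C 5 of the 8 fell and none rose, in ACHN shYY1 3 fell and none rose, in HK2 shYY1 3 fell and 2 rose, and in HK2 Dsh 3 fell and 1 rose. By the departure from the sum in ACHN, 4 were lower and 2 higher.

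Assembly factors of complexes I to III went either way, and in ACHN Dsh their shares were no higher than the 32% and 30.7% of all genes. Of 24, 7 fell and 6 rose in ACHN Dsh, with UQCC2 at -0.90 (SE 0.0939) and UQCC1 at 0.89 (SE 0.0575), which act in the synthesis and assembly of cytochrome b, and NDUFAF2, an assembly factor of complex I, at -0.82 (SE 0.129). In HK2 Dsh 7 fell and 4 rose, with UQCC1 at 1.07 (SE 0.0691), in HK2 shYY1 none fell and 6 rose, in ACHN shKDM5C 3 fell and 9 rose, and in ACHN shYY1 4 fell and 5 rose. By the departure from the sum in ACHN, 9 were lower and 4 higher. Of 12 regulators of respiratory genes, 2 fell and 5 rose in ACHN Dsh, with the coactivator PPARGC1A at 1.51 (SE 0.214) and its relative PPARGC1B at -0.82 (SE 0.122). In HK2 Dsh 7 regulators fell and 2 rose, with TFAM, which packages and transcribes mitochondrial DNA, at -0.94 (SE 0.058), PPARGC1A at -0.51 (SE 0.0733) and the nuclear receptor ESRRA at 0.59 (SE 0.068). The counts of regulators were 1 lower and 7 higher in ACHN shKDM5C, 1 and 5 in ACHN shYY1, 2 and 4 in HK2 shYY1 and 4 and 2 by the departure from the sum in ACHN. In HK2 shKDM5C none of these 5 lists had a called gene except for 1 regulator that rose. These lists were counted only with HK2 shKDM5C replicate 1 in the fit. Over all genes, 0.656% fell and 0.668% rose with that library, and 10.9% and 11.5% without it.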

How the data were processed

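Total RNA was extracted with TRIzol, and libraries were made with the NEBNext Ultra RNA kit and sequenced as 150 bp paired ends. Per the labels, the authors aligned reads with HISAT2 2.0.5 to hg38 and counted them with featureCounts 1.5.0-p3. The deposited file headers name featureCounts 2.0.1 with Ensembl release 84, paired counting and no option for strand, multi-mapping or overlap. The deposited values are raw counts per gene, 15926561 to 24272298 per library. Antisense and overlapping genes cannot be told apart, and p-values cover the spread between libraries only.

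Symbols were mapped for 41209 of 60675 genes. Pairs of groups were compared with the edgeR 4.0.16 quasi-likelihood test in R 4.3.3 (filterByExpr, TMM scaling, Benjamini-Hochberg over all genes tested, adjusted p under 0.05). Interactions and differences between lines were contrasts over 12 libraries. edgeR stood in for the DESeq2 test of the authors, and DESeq2 1.42.0 was an alternative. Other alternatives were scaling, filters on low counts, the libraries in the fit, a replicate block, removal of trends over GC content and gene length, and leaving out each library. A trend over canonical transcript length and fits without HK2 shKDM5C replicate 1 were added after seeing the data.

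Named were the 4 called genes with the largest change in each direction in comparisons with shNC, 3 in the other tests, and a fixed set of complex II, CYC1, UQCRFS1, UQCRC1, UQCRC2, NDUFS1, NDUFV1, NDUFS3, NDUFS7 and NDUFS8. The fixed set is given only in part for HK2 shKDM5C, the HK2 interaction and the differences of effects between the lines. Other named genes were chosen after their values were seen. The members and lists were chosen with earlier results of these data known. The fits were tested on simulated data. Outside the list, KDM5C and YY1 were named as the targets. One kidney marker of the list is not reported here.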

Additional observations from a re-analysis of the deposited data

Results flagged for a closer look

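Between the lines, the effects of the same knockdown differed by the edgeR contrast of the effects, adjusted over all genes tested. Values are the log2 effect in ACHN minus that in HK2. The shares of all genes are those of this contrast. They were not computed for fits with a library left out or over all libraries. Dixon's test for single outlying values was not run, since it was limited to groups of at least 4 libraries.

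For shKDM5C, 1 gene was lower and 4 were higher in ACHN, where 6.18% of all genes tested were lower and 5.74% higher. NDUFA5 was at -0.76, NDUFAB1 at 0.95, UQCR11 at 0.78 and UQCRFS1 at 0.61. Without HK2 shKDM5C replicate 1, 4 genes were lower and 14 higher.

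For shYY1, 17 genes were lower and 4 higher, where 16.5% of all genes tested were lower and 16.6% higher. The fit over all libraries gave 3 and 1. NDUFA1 was at -0.85, NDUFB1 at -0.80, NDUFS5 at -0.77, NDUFB8 at 0.60, NDUFA5 at 0.37 and NDUFB9 at 0.34.

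For Dsh, 20 genes were lower and 11 higher, where 22.7% of all genes tested were lower and 23.3% higher. NDUFA1 was at -1.94, NDUFB3 at -1.52, NDUFA3 at -1.39, NDUFA9 at 1.13, NDUFA11 at 1.07 and UQCR11 at 0.78. Without ACHN shNC replicate 3, 7 genes were higher, and 3 were in the fit over all libraries.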

How the results depend on the processing

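Counts of called genes in comparisons within ACHN stayed within 1.5 times under every alternative run. Shares of all genes under the alternatives were computed only for HK2 shKDM5C and the HK2 interaction without HK2 shKDM5C replicate 1. Medians over the list moved by more than the spread between replicates in 16 cases. With the trend over GC content and gene length removed they went from -0.22 to -0.12 in ACHN Dsh, from -0.14 to -0.01 in HK2 shKDM5C and from -0.17 to -0.28 in the HK2 interaction, and with the block added to -0.12, -0.02 and -0.28. With canonical transcript length in its place they were -0.09 in ACHN Dsh, 0.01 in HK2 shKDM5C, 0.14 in HK2 shYY1 (from 0.24), 0.03 for the Dsh difference (from -0.16) and -0.16 between the shNC cells (from -6e-04). Total counts gave -0.35 in the ACHN interaction (from -0.45). Without HK2 shKDM5C replicate 1 the median was -0.01 in HK2 shKDM5C and 0.12 for the shKDM5C difference (from 0.22), which was 0.33 without replicate 2, and the Dsh difference was at -0.05 without HK2 Dsh replicate 3. In HK2 shKDM5C, leaving out each library gave 0 to 4 lower and 0 to 5 higher genes, the highest without HK2 shKDM5C replicate 1, and 1 was higher with the GC and canonical transcript length trend removed. In HK2 shYY1, lower genes numbered 1 to 2 when libraries were left out, 4 with total counts, 3 when genes needed 10 counts in all libraries of at least 1 group, 4 with the GC and gene length trend removed, 6 with the canonical one and 2 in the fit of the line less HK2 shKDM5C replicate 1. The fit over all libraries of a line gave 4 higher genes in HK2 shYY1, 4 lower and 1 higher in HK2 Dsh, 3 lower and 1 higher for the shYY1 difference between the lines and 3 higher for the Dsh difference. Leaving out libraries gave 10 to 17 lower and 4 to 7 higher genes in HK2 Dsh, 1 to 18 lower in the HK2 interaction and 7 to 11 higher for the Dsh difference, and total counts gave 2 lower in the HK2 interaction. For the shKDM5C difference, lower genes numbered 1 to 4 and higher ones 1 to 14 when libraries were left out, 2 and 8 with DESeq2, 2 and 11 over all libraries, 4 and 9 with the canonical trend removed, and higher ones 1 with total counts and 9 with the gene length trend removed. CYC1 in the HK2 interaction turned from 0.08 to -0.40 with the GC and gene length trend removed. NDUFS1 in the shKDM5C difference turned from -0.05 to 0.27 with that trend removed, 0.33 with the canonical one and lay between -0.14 and 0.16 when libraries were left out, the latter without HK2 shKDM5C replicate 1. The cause was not tested.

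The labels give same-numbered libraries a shared number and no more. Correlations of their deviations were -0.223 to 0.0821, and the best match was to their own number in 2 of 12 ACHN and 3 of 12 HK2 libraries. These values do not settle whether same-numbered libraries shared a preparation. With the replicate block, 3 genes were lower in HK2 shYY1, 2 in the HK2 interaction and 0 higher for the shKDM5C difference. With the replicate block and the GC and gene length trend removed, 4 were lower in HK2 shYY1 and 0 were lower for the shKDM5C difference. No paired analysis was run for the shNC cells of the lines because the labels give the numbers no meaning shared between lines.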
